A study of Mus musculus with 12 samples.

Results

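Enzymes that write and erase methyl groups on histones and DNA were followed in mouse blood neutrophils, as a list of 36 autosomal genes among the 11494 genes of the deposited table. The list holds 13 histone demethylases, 8 polycomb genes, 7 H3K4 methyltransferases of the Kmt2 and Setd1 families, 4 methyltransferases for H3K36 or H3K79, and 4 enzymes of DNA methylation. Genes were matched by symbol, and all 36 were found. The study compared 6 libraries from recipients of control marrow with 6 from recipients of LOY marrow, in which blood-forming cells have lost the Y chromosome. Both groups are bone marrow transplant groups, all 12 samples carry the treatment label control, and the genotype labels read Control and LOY. Each library was made from 10000 sorted cells positive for Ly6G and RFP and negative for CD115. The labels name no strain, age or sex, do not say how the loss was made or what RFP marks, and leave unstated if the libraries came from separate mice. The p-values therefore measure the spread between these libraries, which may be technical.

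Methyl groups on histone H3 tails mark genes as active, poised or silent. Enzymes of the Kmt2 and Setd1 families methylate lysine 4 at promoters and enhancers, polycomb repressive complex 2 (PRC2) methylates lysine 27 on silent genes, and demethylases of the Kdm1 and JmjC families remove such marks. Dnmt enzymes methylate cytosine in DNA, and Tet enzymes oxidize the methyl group, which leads to its removal. Dnmt3a, Tet2 and Asxl1 are the genes most often mutated in clonal haematopoiesis of human blood. The Y chromosome carries members of demethylase gene families, Kdm5d and Uty. Neutrophils are short-lived cells that leave the marrow after their last division, with condensed and lobed nuclei.

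Values are normalized reads per gene, which are gene read counts divided by 1 scaling factor per library. Recovered reads ranged from 13743581 to 19616066 per library. The libraries of Control 1, 2 and 12 stood apart, with 17.3% to 21.7% of listed genes at 0 against 6.6% to 11.6% in the other 9. Reads of 6 chromosome Y genes summed to 168 to 259 per 1000000 in control libraries. The library labelled LOY 4 kept 39.2% of the control mean of that sum and LOY 5 kept 3.31%, while the other 4 LOY libraries kept 0.170% to 0.755%. All 9 neutrophil markers were present, and 9 of 9 had an unadjusted p above 0.05 (limma). Of 8 listed monocyte markers 4 were in the table, and these summed to 10936 to 20896 normalized reads in control and 12782 to 19067 in LOY libraries. Among them Csf1r stood at 9279 ± 2572 and 12442 ± 2295 (log2 fold change 0.45 ± 0.19, unadjusted p = 0.0358, limma). Csf1r encodes CD115, the receptor for the growth factor of monocytes, and the sorted cells were negative for CD115. Which cells its reads came from was not tested. Ly6c2 and Adgre1 had lower means in LOY, and F13a1 was at 0 in 10 of 12 libraries. The 5 platelet markers in the table summed to 532 to 1402 in control and 469 to 1310 in LOY libraries. Of these, Pf4 stood at 414 ± 161 and 220.2 ± 93.1 (−0.91 ± 0.39, unadjusted p = 0.0373, limma). Gp9 also had a lower mean in LOY, while Ppbp, Itga2b and Tubb1 had higher means. The 6 B cell markers summed to 4005 to 6565 and 1816 to 7288. Erythroid markers reached 627781 in LOY 15, against 72416 to 190842 in the other 11 libraries.

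Ezh1 and Ezh2 encode alternative catalytic subunits of PRC2, and by ratio their levels per length stood farthest apart among the related members compared. Ezh2 is known for dividing cells and Ezh1 for resting ones. Their upstream sequences are shown because 1 gene of the pair was read in every library while the other was at 0 in most. The windows searched are the 250 bases before the RefSeq start on the minus strand (GRCm38.p6). The Ezh2 window lies inside the gene's span in GENCODE M21, where 125 of its bases are exonic, so only the 125 bases outside exons are printed. The stretches printed are chr11:101226464-101226713 for Ezh1 and chr6:47595059-47595183 for Ezh2, written 5′ to 3′, with capitals marking CCAAT or its reverse complement ATTGG.
Ezh1 upstream: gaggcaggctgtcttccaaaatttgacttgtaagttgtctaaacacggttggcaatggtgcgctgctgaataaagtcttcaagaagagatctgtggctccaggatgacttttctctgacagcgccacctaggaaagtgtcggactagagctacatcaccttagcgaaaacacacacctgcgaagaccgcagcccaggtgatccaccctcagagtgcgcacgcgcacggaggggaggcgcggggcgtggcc
Ezh2 upstream: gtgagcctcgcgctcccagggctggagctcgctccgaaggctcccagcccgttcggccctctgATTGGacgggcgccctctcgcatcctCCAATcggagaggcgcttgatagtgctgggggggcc
CCAAT is the core of the site that the factor NF-Y binds. It was matched 3 times in the Ezh2 window, 2 of them in the stretch printed, and 0 times in the Ezh1 window, while 2.79% of the 32851 upstream windows of this length in the RefSeq table hold 3 or more matches on both strands together. RefSeq windows were found for 26 of the 36 members, with 37 entries in all, and 3 of these entries held 3 or more matches. They belong to Ezh2 and to 2 of the 3 entries of Dnmt1. The cut of 3 equals the count of the Ezh2 window itself. At least 1 match was held by 11 of the 37 entries, beside 33.8% of all windows. No GC box (GGGCGG) was matched in either window, against 32.7% of all windows. E2F letters (TTTGGCGC, TTTCCCGC, TTTCGCGC or TTTGCCGC on either strand) were not matched in either, against 1.86%. The motifs were chosen after the values had been seen, and a match is a description of the letters only.

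Between genes, levels were compared as normalized reads per kilobase of annotated exon, averaged over 12 libraries. Kmt2e was highest at 555 ± 109 (SD, n = 12), followed by Asxl1 at 348 ± 152, Kdm7a at 313 ± 67.3, Bap1 at 267 ± 128, Ezh1 at 251 ± 83.0 and Kdm6b at 241 ± 88.5. Kmt2e encodes a SET domain protein that is needed for normal neutrophil function and for which methyltransferase activity is disputed, and it lay above Asxl1 in 10 of 12 libraries. Neighbours among the other 5 could not be ordered beyond their spread. Asxl1 was above Kdm7a in 6 of 12 libraries, Kdm7a above Bap1 in 8, Bap1 above Ezh1 in 6 and Ezh1 above Kdm6b in 8. Farther apart in the order, Kdm7a was above Kdm6b in 10 of 12. At the low end stood Kdm2b at 5.02 ± 4.09, Dnmt1 at 2.75 ± 6.35 and Ezh2 at 1.42 ± 3.08. Of the 35 neighbouring pairs in the order of levels, 0 kept their order in all 12 libraries. Among all genes with a length the median member was at percentile 51.7, with Kmt2e at 88.9 and Ezh2 at 0.872.

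**Figure D1:**
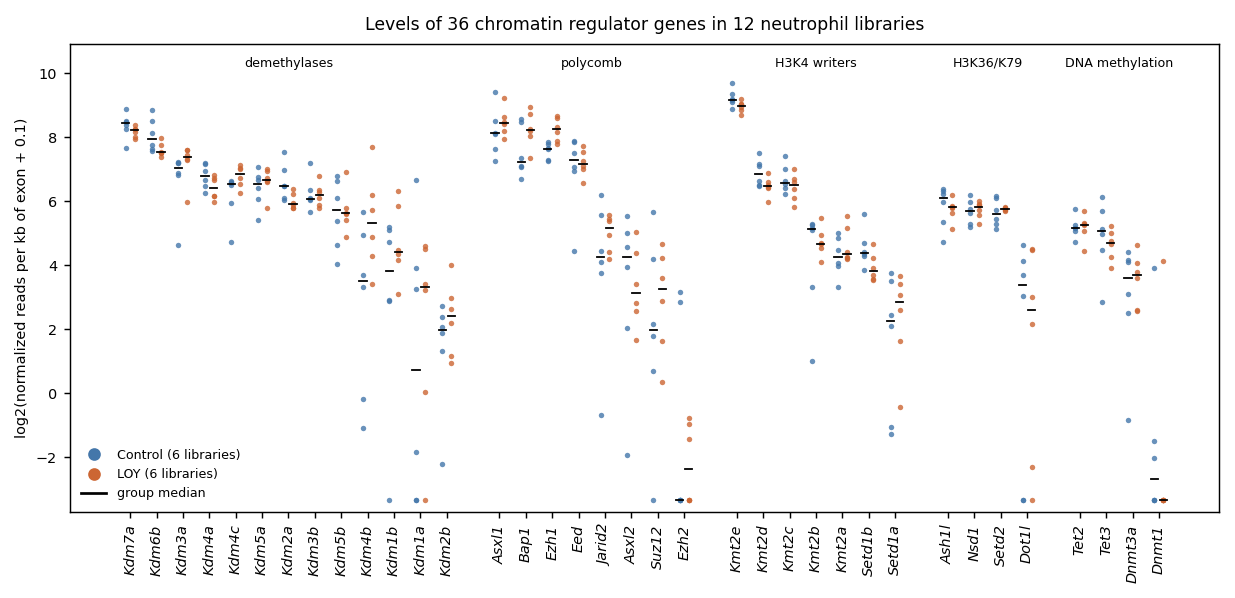
Level of each of the 36 genes on the scale log2(normalized reads per kb of exon + 0.1), by class, with 1 point per library (6 Control, 6 LOY) and a bar at each group's median. Kmt2e is highest, and points at the bottom edge are libraries at 0, most often in Ezh2 and Dnmt1.

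Related members differed widely in level. Per kilobase, Ezh1 was above Ezh2, Asxl1 above Asxl2, Kdm2a above Kdm2b, Setd1b above Setd1a, and Kmt2c and Kmt2d above Kmt2a in 12 of 12 libraries. In control libraries Ezh1 stood at 193 ± 31.9 and Ezh2 at 2.65 ± 4.15 normalized reads per kilobase (SD, n = 6), and in LOY libraries at 310 ± 77.7 and 0.197 ± 0.226. Tet2 was above Tet3 in 9 of 12 libraries and Kmt2d above Kmt2c in 8 of 12, so these pairs were not ordered beyond their spread. Ezh1 and Ezh2 transcripts share no word of 31 bases, so reads of the pair are separable at that length. More than 10% of such words were shared with other genes for 3 members, Setd1a (51.8%, mainly with Gm49388), Kdm3b (25.7%, mainly with Gm26538) and Kdm2b (13.4%, mainly with Rnf34), whose values are uncertain for that reason. The exons of 11 members overlap a listed gene on the opposite strand, and the library kit does not mark strand. Among the 11 are Kmt2e (972 bases, with Srpk2), Asxl1 and Kdm6b, which stood near the top in level. The part of such reads in their values was not tested.

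The LOY and control libraries were compared for every gene that reached 10 normalized reads in 6 or more libraries (limma on log2(value + 1)), which kept 34 of the 36 members and left out Ezh2 and Dnmt1. Of the 34, 0 passed an adjusted p of 0.05 in either direction, beside 0.0205% of the 9742 genes tested. At an unadjusted p under 0.05 there were 3, Ezh1 and Kdm4b with positive and Kdm2a with negative estimates, beside 6.04% of all genes tested (4.4% higher and 1.63% lower in LOY). edgeR and DESeq2 on recovered reads gave 0 members past the adjusted threshold as well, with 3 and 5 at an unadjusted p under 0.05 (background 0% and 0.484% adjusted, 2.94% and 5.55% unadjusted). No member had groups that did not overlap, beside 0.287% of all genes tested (0.175% higher and 0.113% lower). Of the 34 estimates 21 were positive and 13 negative, with a median of 0.19 beside 0.14 for all genes tested. With edgeR the split was 17 and 17 (medians 0.00041 and −0.0098), and with the proportion of genes at 0 as covariate 15 and 19 (medians −0.03 and −0.04). The 95% interval lay within 2-fold either way for 12 of the 34 members (35.3%) and for 30.7% of all genes tested.

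**Figure D2:**
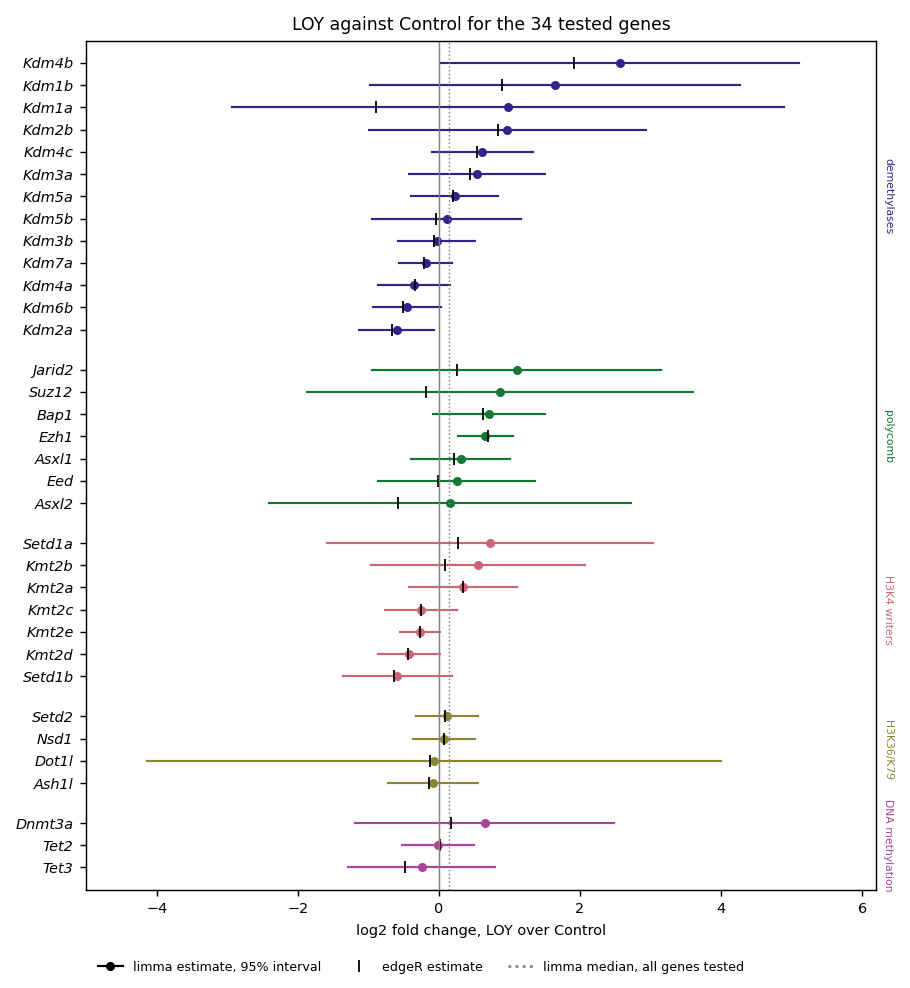
Log2 fold change of LOY over Control for the 34 tested genes, by class, with limma estimates (points), their 95% intervals (bars) and edgeR estimates (ticks); the dotted line is the limma median of all genes tested. The intervals of Ezh1, Kdm4b and Kdm2a are the ones that lie off 0, and the widest are those of Dot1l and Kdm1a.

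Among the polycomb genes, Ezh1 had the smallest p of all members. Its normalized reads were 1711, 1167, 1463, 1643, 1503 and 1144 in Control 1, 2, 6, 12, 17 and 18. In LOY 4, 5, 9, 10, 15 and 19 it stood at 1739, 2136, 3022, 1637, 2384 and 2901. Of the LOY libraries 5 lay above every control library, and LOY 10 lay inside the control range. The log2 fold change was 0.66 ± 0.18 (SE), with a 95% interval from 0.27 to 1.05, and the adjusted p was 0.539 (limma). The adjusted p was 0.0935 with DESeq2 and 0.9999 with edgeR. The authors' deposited table has the same fold change (0.68) and unadjusted p as DESeq2 here, adjusted to 0.0919, and is not a separate result. Over the 25 ways of processing that were run the estimate stayed between 0.57 and 0.75, and the unadjusted p between 0.00062 and 0.0138. Without LOY 4, the library that kept Y reads, the estimate was 0.73, and without LOY 15, the library with most globin, it was 0.64. B cell markers summed to 7288 in LOY 9 and 6901 in LOY 19, the libraries with most Ezh1, and to 1816 in LOY 10. They also summed to 6308 and 6446 in Control 17 and 18. In LOY 15, where Ezh1 stood at 2384, above every control library, they summed to 2331, below every control library. LOY 4 and 5 had 5015 and 5146. Most of these sums was Ighm, at 5926 in LOY 9 and 1757 in LOY 10. Csf1r, listed as a monocyte marker, was above every control library in 4 LOY libraries, LOY 5, 9, 15 and 19. It was lowest among LOY libraries in LOY 10, at 9734. The part of such cells in the Ezh1 values was not tested. In bulk samples, fewer cells of a type and less RNA per cell cannot be told apart.

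The other PRC2 genes were less evenly read. Ezh2 was above 0 in 2 of 6 control libraries, at 58.99 in Control 17 and 47.3 in Control 18, and in 3 of 6 LOY libraries, at 3.28, 1.82 and 2.78 in LOY 5, 9 and 10. It was at 0 in the other 7, where up to 3 reads are compatible with the count (counting error only). Eed, which binds the lysine 27 mark and stimulates the enzyme, ranged from 82.8 to 895 in control and from 361 to 806 in LOY libraries. Its estimate was 0.25 ± 0.51 with limma and −0.01 with edgeR. Suz12, the subunit that holds the complex together, ranged from 0 to 248 and from 5.79 to 125, with estimates of opposite sign in limma (0.86 ± 1.26) and edgeR (−0.19). Jarid2, a cofactor that helps to recruit PRC2, ranged from 5.12 to 710 and from 177 to 463 (1.10 ± 0.94, and 0.26 with edgeR).

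Asxl1 or Asxl2 acts with Bap1 in the complex that removes ubiquitin from histone H2A, a mark set by polycomb repressive complex 1. Asxl1 ranged from 1126 through a median of 2066 to 5024 in control libraries and from 1815 through 2612 to 4427 in LOY libraries. Its highest values were in Control 2 and LOY 15, and the estimate was 0.31 ± 0.32 (SE). Bap1, the deubiquitinase itself, ranged from 485 through 701 to 1761 and from 760 through 1391 to 2326. All 6 LOY libraries lay above the control median, and 2 above every control library (0.71 ± 0.37, limma adjusted p = 0.810). Asxl2 ranged from 2.56 in Control 2 to 739 in Control 12 and from 49.0 to 520 in LOY libraries, with an estimate of 0.15 ± 1.18. All 7 tested polycomb genes had positive limma estimates, beside 60.9% of all genes tested, and 0 passed. With edgeR 4 were positive and 3 negative, beside 48.9% positive over all genes.

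Of the 13 demethylases 7 had a lower mean in LOY than in control libraries, Kdm2a and Kdm6b among them. Kdm2a removes methyl groups from H3K36 and binds unmethylated CpG islands. Its normalized reads were 1816, 2704, 1276, 955, 1278 and 990.0 in Control 1, 2, 6, 12, 17 and 18. In LOY 4, 5, 9, 10, 15 and 19 it stood at 799, 896, 1204, 790, 1068 and 855. The LOY values all lay below the control median and 4 of 6 below every control library, while Control 1 and 2 were the 2 highest. The log2 fold change was −0.60 ± 0.25 (SE, limma adjusted p = 0.794, DESeq2 0.527). It was −0.41 without Control 2, −0.34 without Control 1, 2 and 12 together, and −0.22 with the proportion of genes at 0 as covariate, and its sign was the same in all 25 ways of processing. Its paralogue Kdm2b, a partner of polycomb complexes, was low, from 1.28 to 70.2 in control and from 19.7 to 174 in LOY libraries.

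Kdm6b removes the lysine 27 mark that PRC2 sets and is induced by inflammatory signals in myeloid cells. It ranged from 1320 through 1727 to 3203 normalized reads in control and from 1146 through 1286 to 1739 in LOY libraries. Control 2 and 17 were highest, and 4 of 6 LOY libraries lay below every control library. The estimate was −0.46 ± 0.22 (SE), with an unadjusted p of 0.0607 in limma and 0.043 in edgeR and an adjusted p of 0.810 (limma). It was −0.30 without Control 2 and also −0.30 with the proportion of genes at 0 as covariate. Kdm7a, which acts on H3K9 and H3K27, was the demethylase with the highest level per length. It ranged from 2018 through 3474 to 4694 in control and from 2482 through 2982 to 3336 in LOY libraries. All 6 LOY libraries lay below the control median but inside the control range (−0.19 ± 0.17, and −0.09 without Control 2).

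**Figure D3:**
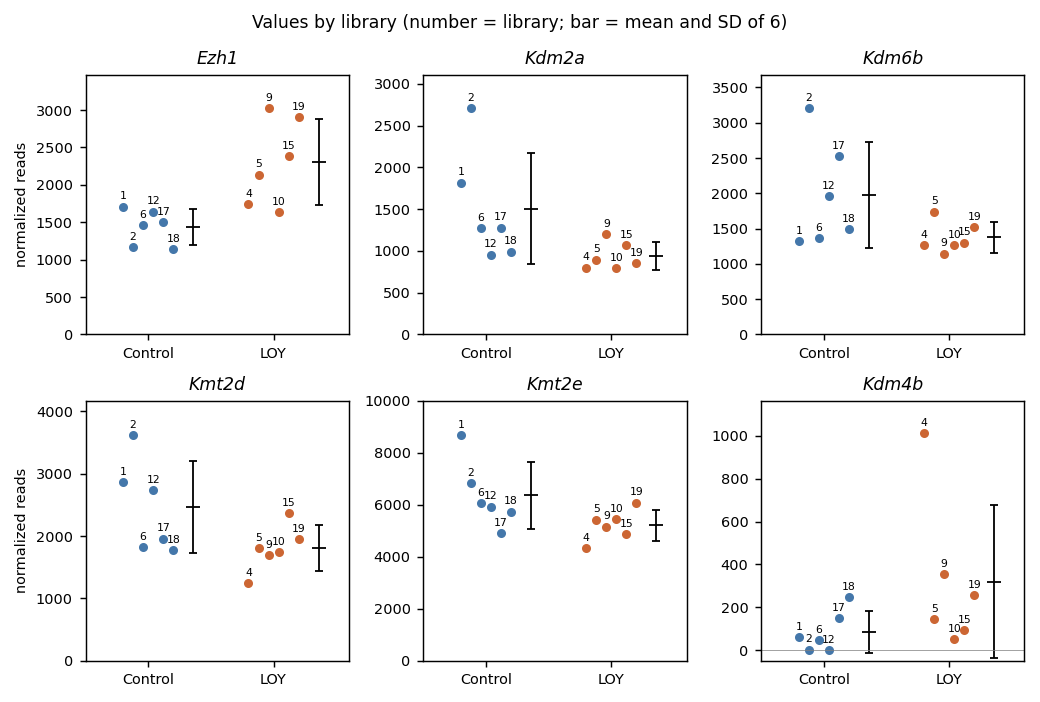
Normalized reads by library for Ezh1, Kdm2a, Kdm6b, Kmt2d, Kmt2e and Kdm4b, with the library's number beside each point and the mean and SD of 6 libraries as a bar. The 2 highest Kdm2a values are Control 1 and 2, and the highest Kdm4b value is LOY 4 at 1011.

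Estimates for the H3K9 and H3K36 demethylases had both signs. Kdm4b, a JmjC enzyme of the Kdm4 family, had 62.4, 3.84, 48.3, 1.83, 152 and 249 normalized reads in Control 1, 2, 6, 12, 17 and 18, and at 1011, 144, 355, 51.8, 94.7 and 258 in LOY 4, 5, 9, 10, 15 and 19. The groups overlap, with 3 LOY libraries above every control library. Its log2 fold change of 2.56 ± 1.17 (SE, limma adjusted p = 0.810) included Control 2 and 12 at 3.84 and 1.83. It was 0.71 without Control 1, 2 and 12 and 0.51 when the proportion of genes at 0 was a covariate. Kdm4c stood at 458 ± 170 and 655 ± 144 (SD, n = 6 each; 0.61 ± 0.33 SE), with 4 LOY libraries above every control library. Kdm4a stood at 652 ± 170 and 507 ± 123 (−0.36 ± 0.23), with 3 LOY libraries below every control library. Kdm3a, an H3K9 demethylase that responds to low oxygen, was above every control library in 5 LOY libraries, at 1286 to 1596, and at 514 in LOY 10. Its controls ran from 204 in Control 1 to 1226 in Control 12 (0.54 ± 0.44). Kdm3b stood at 1122 ± 477 and 1063 ± 286 (−0.03 ± 0.25).

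The H3K4 demethylases include Kdm5a and Kdm5b, autosomal relatives of the Y-linked Kdm5d, and the unrelated flavin-dependent enzymes Kdm1a and Kdm1b. Kdm5a ranged from 607 through 1307 to 1895 normalized reads in control and from 780 through 1438 to 1817 in LOY libraries, with full overlap (0.22 ± 0.28 SE). Kdm5b ranged from 273 to 1834 and from 484 to 1976 (0.11 ± 0.49). Kdm1a, the enzyme of the CoREST complex, was at 0 in Control 1, Control 12 and LOY 10 and reached 521 in Control 2 and 126 in LOY 9 (0.98 ± 1.80, and −0.89 with edgeR). Kdm1b ranged from 0 to 201 and from 46.3 to 440 (1.65 ± 1.21). Of the 13 demethylases 0 passed, with 8 positive and 5 negative estimates in limma and 6 and 7 in edgeR.

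On the sex chromosomes, Kdm5d was above 0 only in Control 6 and 12, at 38.3 and 175 normalized reads. Uty ranged from 0 to 597 in control and from 0 to 70.4 in LOY libraries. The low-value filter left Kdm5d and Uty out of the limma test. DESeq2 called Kdm5d lower in LOY (log2 fold change −22.8, adjusted p = 1.01e-10), as did the deposited table, but not Uty (DESeq2 adjusted p = 0.441). The Kdm5d call rests on Control 6 and 12. The X-linked partners of Kdm5d and Uty, Kdm5c (577 ± 176 and 504 ± 61.7, log2 fold change −0.15 ± 0.22 SE) and Kdm6a (535 ± 324 and 435 ± 166, −0.13 ± 0.44), did not pass (limma adjusted p = 0.905 and 0.958).

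The H3K4 methyltransferases split by level. Kmt2e ranged from 4911 through 5997 to 8698 normalized reads in control and from 4323 through 5296 to 6088 in LOY libraries. Control 1 was highest, and 2 LOY libraries lay below every control library (−0.27 ± 0.13 SE, unadjusted p = 0.0596, adjusted p = 0.810, limma). It was −0.18 without Control 1, −0.10 without Control 1, 2 and 12, and −0.04 with the proportion of genes at 0 as covariate. Kmt2d, the enhancer enzyme with Kmt2c, stood at 2870, 3625, 1817, 2736, 1959 and 1778 in Control 1, 2, 6, 12, 17 and 18. In LOY 4, 5, 9, 10, 15 and 19 it stood at 1241, 1812, 1700, 1745, 2372 and 1947. Control 1, 2 and 12 were the 3 highest of the 12, and the other 3 control libraries lay inside the LOY range (−0.42 ± 0.20, limma adjusted p = 0.810). Over the 25 ways of processing its estimate lay between −0.53 and 0.03. Kmt2c stood at 2191 ± 706 and 1825 ± 528 (SD, n = 6 each; −0.26 ± 0.24 SE).

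Of the promoter enzymes, Kmt2a, the gene rearranged in many leukaemias, stood at 348 ± 141 and 440 ± 194 normalized reads (0.34 ± 0.35 SE). Kmt2b ranged from 18.3 in Control 1 to 373 and from 163 to 427 (0.55 ± 0.70). Setd1b stood at 301.2 ± 147 and 192 ± 65.0 (−0.59 ± 0.36), with 3 LOY libraries below every control library and Control 2 highest at 587. Setd1a ranged from 2.15 to 91.9 and from 4.32 to 86.0 (0.72 ± 1.06). Of the 7 genes 0 passed, with 3 positive and 4 negative estimates in limma and in edgeR.

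Of the H3K36 and H3K79 methyltransferases, Setd2, Nsd1 and Ash1l had intervals within 2-fold of 0 change. Setd2, which writes trimethylation of H3K36 along transcribed genes, ranged from 378 to 768 normalized reads in control libraries but from 555 to 600 in LOY libraries, a coefficient of variation of 29.5% and 3.10%. Its log2 fold change was 0.12 ± 0.20 (SE), with a 95% interval from −0.33 to 0.56. Nsd1, which writes dimethylation of H3K36, stood at 913 ± 245 and 944 ± 165 (0.07 ± 0.20, interval −0.36 to 0.51). Ash1l, also an H3K36 enzyme, ranged from 388 through 1014 to 1237 and from 516 through 829 to 1086 (−0.09 ± 0.30). Dot1l, the H3K79 enzyme, was at 0 in Control 1, Control 2 and LOY 9, reached 216 in Control 18 and 198 in LOY 10, and gave an interval of −4.13 to 4.00. Of these 4 genes 0 passed, and a change of 2-fold or more lies outside the interval for Setd2, Nsd1 and Ash1l.

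Among the DNA methylation enzymes, Tet2 had the narrowest interval. It ranged from 443 through 603 to 919 normalized reads in control and from 362 through 648 to 871 in LOY libraries. Group means were 629 ± 158 and 628 ± 165 (SD, n = 6 each), and the log2 fold change was −0.01 ± 0.23 (SE), with a 95% interval from −0.52 to 0.49. Tet3 ranged from 118 to 1173 and from 251 to 620 (−0.24 ± 0.48). Dnmt3a, the de novo methyltransferase, ranged from 7.69 through 211 to 354 and from 96.4 through 214 to 408. Control 2 was far below the others, and the estimate of 0.65 ± 0.85 became −0.11 without it and −0.35 without Control 1, 2 and 12 together. Dnmt1, which copies methylation to the new strand after replication, was at 0 in 8 of 12 libraries. It reached 111 in Control 6 and 130 in LOY 19, and stood at 1.08 and 1.87 in Control 1 and 17. Of the 3 tested genes 0 passed.

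**Figure D4:**
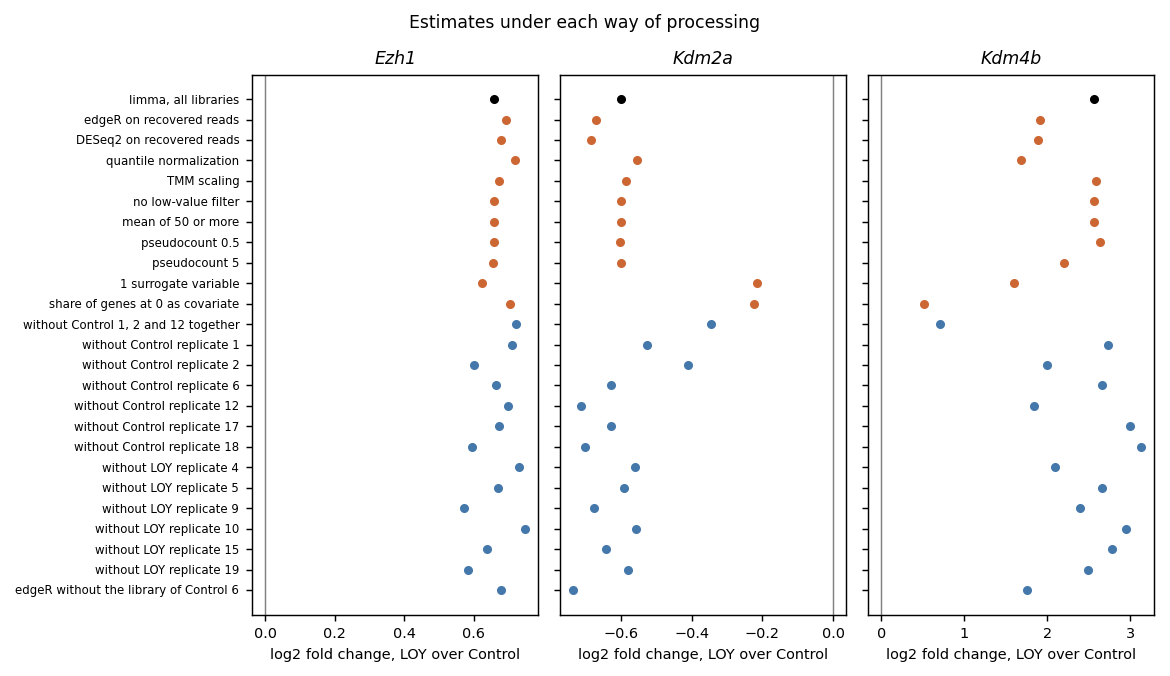
Log2 fold change of LOY over Control for Ezh1, Kdm2a and Kdm4b under each of 25 ways of processing (black, limma with all libraries; blue, libraries left out; orange, other tests, scalings, filters, pseudocounts and covariates). Ezh1 stays between 0.57 and 0.75, while Kdm2a and Kdm4b move toward 0 when Control 1, 2 and 12 are left out or the proportion of genes at 0 is a covariate.

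Spread within groups was larger in the control libraries. Of the 34 tested members 29 had a larger coefficient of variation in control than in LOY libraries, beside 77.0% of all genes tested. Without Control 1, 2 and 12 this held for 13 of 34, beside 44.9% of all genes. The lowest of the 12 values was in Control 1, 2 or 12 for 24 of 34 members (58.5% of all genes tested), and the highest for 17 (46.1%). Control 2 alone was highest for 11 members, 32.4% of them beside 19.3% of all genes tested. Summed over the 36 members the level per 1000000 normalized reads was 2076 ± 244 for control and 2034 ± 206 for LOY libraries (SD, n = 6 each).

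Partner genes of the same pathways were listed in 6 further autosomal lists, of which 81 genes were in the table and 70 were tested. Of the 70, 0 passed (limma), with 41 positive and 29 negative estimates (28 and 42 in edgeR), beside 60.9% positive over all genes tested. An unadjusted p under 0.05 was found for 7 of the 70, beside 6.04% of all genes tested, and these 7 are given as values. In the DNA methylation list Gadd45a, a stress-induced gene linked to DNA demethylation, ranged from 3371 to 4097 normalized reads in control and from 2169 to 3508 in LOY libraries (−0.43 ± 0.12 SE, limma adjusted p = 0.591; unadjusted p = 0.00985 in edgeR). In the same list Idh2, a mitochondrial enzyme whose mutant form blocks Tet enzymes, was at 0 in 4 control libraries and ranged from 13.4 to 112 in LOY libraries (4.39 ± 1.17, adjusted p = 0.526; 2.13 with edgeR, unadjusted p = 0.209). Mbd4, a DNA glycosylase, was at 3.39 ± 1.34 with limma and 1.37 with edgeR (unadjusted p = 0.288). Among other methyltransferases Kmt5c, which methylates histone H4, had means of 1038 ± 405 and 648 ± 119 (−0.62 ± 0.24, adjusted p = 0.794), and the estimate for Ehmt1 was 2.52 ± 1.16 with limma and 1.17 with edgeR (unadjusted p = 0.232). Rcor3 of the CoREST family (3.33 ± 1.23) and Hcfc2 of the COMPASS list (3.39 ± 1.27) were under 12 normalized reads in 4 and 3 control libraries. Their edgeR estimates were 1.08 and 1.62 (unadjusted p = 0.390 and 0.143). Of 13 tested genes of polycomb repressive complex 1 and 5 PRC2 partners, 0 had an unadjusted p under 0.05.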

How the data were processed

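RNA was measured in 6 Control and 6 LOY libraries, made with SMART-Seq v4 and Nextera XT per the labels' protocols. STAR 2.5.2b, Trimmomatic 0.36, Subread 1.5.2 with featureCounts, and bcl2fastq 2.17 are listed, with mm10 and GRCm38, per the submitters' processing notes. The deposited table gives a normalized signal per gene and library. All values above 0 were whole multiples of 1 step per library, 100.0% within 0.02 reads, so read counts were recovered from the deposited signal. The authors' p-values and log2 fold changes stand beside it, per the file headers, and no source used here names their tool; for the members the deposited fold changes and unadjusted p-values equal those of DESeq2 on recovered reads. Exon lengths came from GENCODE M21.

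Because the signal is normalized, the test was limma 3.58.1 in R 4.3.3 (trended, robust) on log2(value + 1), with Benjamini-Hochberg adjustment over 9742 genes. Fold changes are on that scale, and for genes near 0 in some libraries they exceeded edgeR's. Alternatives used edgeR 4.0.16 and DESeq2 1.42.0 on recovered reads, other scalings, filters, pseudocounts (0.5 and 5), 1 surrogate variable (sva 3.50.0), the share of genes at 0 as covariate, and libraries left out. The tests were run first on simulated data. edgeR without Control 6 was added after seeing the data. Values in each library, or the lowest, median and highest, are given for members at an unadjusted p under 0.05, the highest per kilobase in each of 10 subgroups, and those at 0 in 3 libraries of a group; Kmt2d and Bap1 were added after their values were seen. Members and lists were chosen with earlier results of these data known.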

Additional observations from a re-analysis of the deposited data

Results flagged for a closer look

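Within a group of 6 libraries, a value was singled out when its gap to the nearest other library, as a share of the group's range, passed Dixon's critical value. Of 72 groups examined (36 members in Control and in LOY) 10 values met this. For normally distributed values chance gives about 1 in 20 groups, but these values were not log-transformed and some groups hold zeros. The share over all genes was not counted, so the 10 are not read as an excess. In Control 2, Kdm1a stood at 521 normalized reads (next 77.5), Kdm3b at 2054 (next 1146) and Setd1b at 587 (next 313). Kdm3a stood low, at 204 in Control 1 (next 936) and at 514 in LOY 10 (next 1286). In Control 6, Suz12 stood at 248 (next 89.9) and Dnmt1 at 111 (next 1.87). In LOY 4, the library that kept most Y reads, Kdm5b stood at 1976 (next 912) and Kdm4b at 1011 (next 355). Dnmt1 stood at 130 in LOY 19 and at 0 in the other 5 LOY libraries.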

How the results depend on the processing

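The count of members past the adjusted threshold was 0 under all 24 alternatives, and the smallest adjusted p of any member was 0.0935, for Ezh1 with DESeq2. The count at an unadjusted p under 0.05, 3 with limma, was 5 with DESeq2 and 1 with 1 surrogate variable, with the share of genes at 0 as covariate, or without Control 1, 2 and 12 (3.31%, 2.93% and 4.82% of all genes then). With 1 library left out it ranged from 1 (without Control 2 or LOY 4; 5.71% and 5.18% of all genes) to 6 (without Control 18; 7.40%), and Ezh1 was among them each time. Over all genes 2 passed with limma, 54 with DESeq2, and 0 with edgeR (with or without Control 6), quantile normalization, a mean of 50 or more, 1 surrogate variable, the share of genes at 0, or without Control 1, 2 and 12; with 1 library left out the count ranged from 0 to 15 (without Control 6). Groups without overlap were found for 0 members with the deposited values of all libraries. The count was 1 (Ezh1) with quantile normalization, beside 0.328% of all genes, and 1 (Ezh1) without Control 1, 2 and 12, beside 2.53%. With 1 library left out it ranged from 0 to 2 (Ezh1 and Kdm3a without LOY 10, beside 0.513% of all genes). Of the 34 tested members 17 had estimates of both signs over the 25 ways of processing (24 for Setd1a), 10 were positive and 7 negative throughout. The same counts were not made over all genes. No paired analysis was possible because the groups share no replicate number. The 95% interval lay within 2-fold for 12 of the 34 members, and for the others a change of that size is not excluded.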
